A study of Mus musculus with 10 samples.

Results

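The mRNAs described here are those of 10 genes of triglyceride breakdown and lipid droplet coating in brown adipose tissue (BAT), chosen by name for what their products do. Earlier results of these data were known when the 10 genes were chosen. All 10 genes, namely Pnpla2, Lipe, Mgll, Abhd5, G0s2, Plin1, Plin2, Plin4, Plin5 and Cidec, were found among the 24454 genes counted, and all 10 were among the 13568 genes with enough counts to be tested. BAT was taken from 5 control and 5 Stat5Adipoq mice, and 1 library was sequenced per mouse. All were male C57BL/6N mice, 2 months old, on standard diet with food at will and without any stimulation, the state the labels call basal. In Stat5Adipoq mice the floxed Stat5a and Stat5b genes were deleted by Adipoq-Cre, a Cre recombinase driven by the adiponectin promoter that acts in adipocytes of brown and white depots alike. The sample labels call the controls wild type, whereas the methods describe floxed littermates without Cre. The question was whether loss of the transcription factor STAT5 in adipocytes came with other mRNA levels of the lipolytic machinery.

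Lipolysis removes the fatty acids of a stored triglyceride one after another. Adipose triglyceride lipase (ATGL, gene Pnpla2) cleaves the first, hormone-sensitive lipase (HSL, gene Lipe) cleaves the next from diacylglycerol, and monoglyceride lipase (gene Mgll) releases the last together with glycerol. ATGL is switched on by its coactivator CGI-58 (gene Abhd5) and held back by the inhibitor encoded by G0s2. Perilipins cover the droplet surface and govern the access of these enzymes: perilipin 1 holds CGI-58 until protein kinase A phosphorylates it, perilipin 5 is typical of oxidative tissues, and the protein encoded by Cidec drives the fusion of droplets. In brown adipocytes the released fatty acids fuel respiration and activate UCP1. Much of this control lies in phosphorylation and protein contacts, which mRNA counts do not measure.

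The libraries held between 8488129 and 19514904 counts, and the 10 genes together took 1.15% to 1.24% of them in controls and 1.10% to 1.19% in Stat5Adipoq mice. Levels are given as CPM, the counts of a gene scaled to the same total in every library, with TMM factors that correct for library composition. The deletion was visible in every library. Stat5a had 105 ± 17.0 CPM in controls and 17.1 ± 2.05 CPM in Stat5Adipoq BAT (mean ± SD, n = 5 each), a log2 fold change of -2.62 (SE 0.12, edgeR adjusted p = 2e-07), and Stat5b fell by 1.94 on the log2 scale (SE 0.06, edgeR adjusted p = 3.9e-09). Markers of brown adipocytes were present throughout, and their summed level was 10486 to 20797 CPM in controls and 13358 to 18600 CPM in Stat5Adipoq BAT. Of its 12 genes 1 passed the test, Cox7a1, with a log2 fold change of 0.29 (SE 0.07, edgeR adjusted p = 0.04). Control replicate 3 stood apart, with 5368 CPM of skeletal muscle markers against 3.59 to 440 CPM in the other libraries, and 107 CPM of liver markers, Trf and Cyp2e1 not counted, against 1.43 to 7.82 CPM. With Trf and Cyp2e1, both of which fell, the liver list summed to 253 to 564 CPM in controls and 68.3 to 199 CPM in Stat5Adipoq BAT without overlap. Of the other marker lists, white adipocyte transcripts summed to 117 to 159 CPM in controls and 42.3 to 124 CPM in Stat5Adipoq BAT, with 1 of 7 tested genes called (Retn, log2 fold change -1.53, edgeR adjusted p = 0.023), macrophage transcripts to 138 to 173 and 109 to 146 CPM, endothelial transcripts to 806 to 1013 and 857 to 1054 CPM, and fibroblast transcripts to 589 to 1237 and 605 to 1180 CPM. None of the markers was at 0 in all libraries. The part of these other cell types in the results on the 10 genes was not tested.

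None of the 10 genes passed the adjusted threshold of 0.05 between the genotypes in the edgeR quasi-likelihood test, beside 2.71% of all 13568 genes. An unadjusted p below 0.05 was reached by 3 of the 10, namely Pnpla2, Abhd5 and Plin5, and by 15.2% of all genes. The libraries of both genotypes did not overlap in 1 of the 10, Pnpla2, beside 4.39% of all genes. DESeq2, a different count model, called 1 of the 10, again Pnpla2, and 4.99% of the genes it tested. As the 10 genes were chosen with earlier results of these data known, these counts are a description only. The median log2 fold change was -0.01 over the 10 genes and 0.00 over all genes tested. With mRNA from whole tissue, fewer cells of a type and less RNA per cell cannot be told apart.

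**Figure D1:**
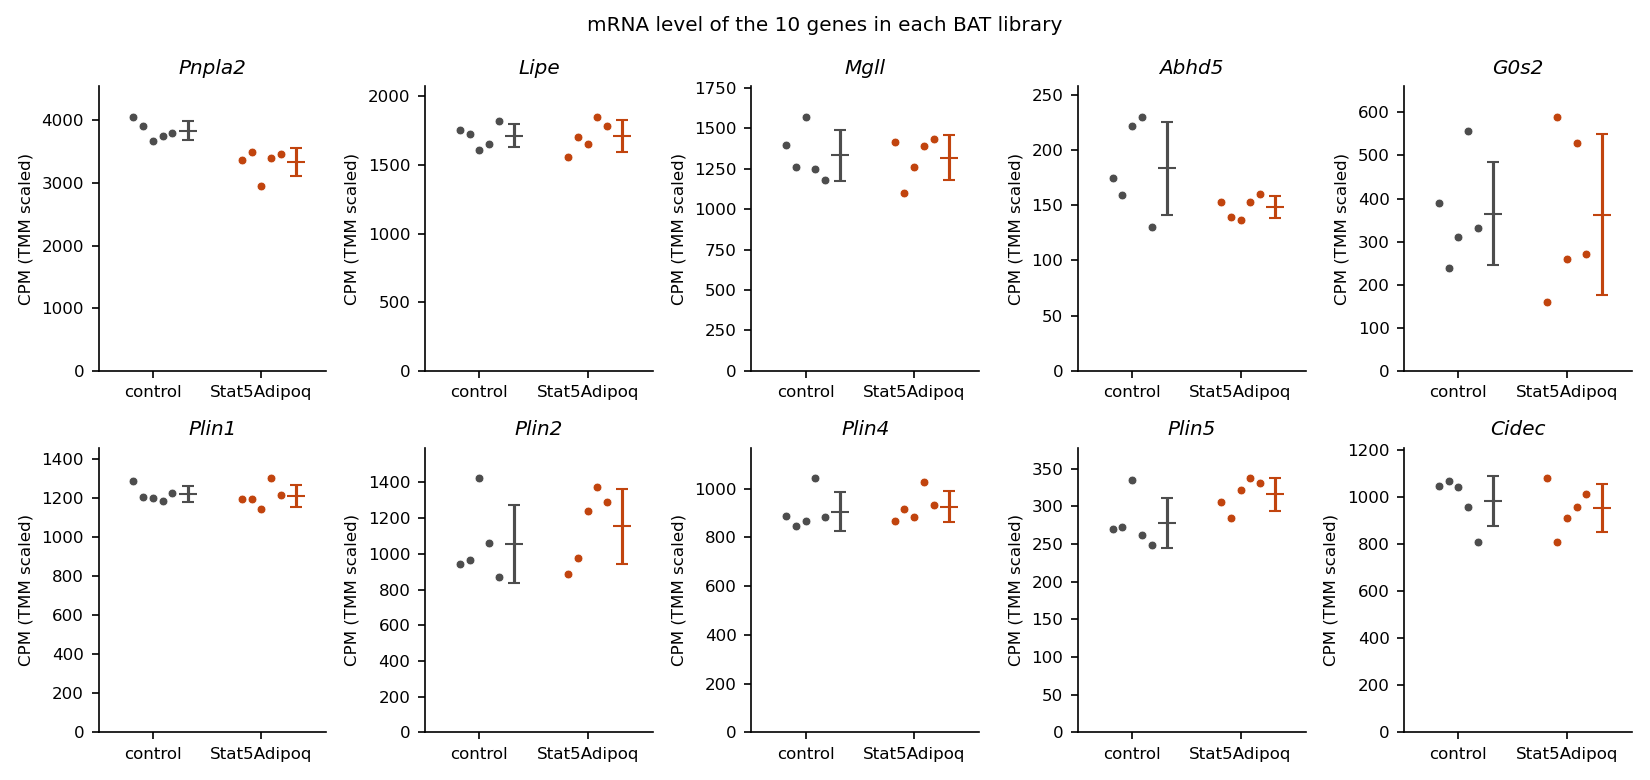
Level of each of the 10 genes in CPM after TMM scaling (vertical axes, starting at 0), with 1 point per library for the 5 control (grey) and 5 Stat5Adipoq (orange) mice and the mean ± SD beside them. In the Pnpla2 panel the Stat5Adipoq points, 2948 to 3493 CPM, all lie below the control points, 3678 to 4063 CPM, and in the other 9 panels the genotypes overlap.

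Expressed per kilobase of transcript, which allows different genes to be compared, Pnpla2 was the most abundant of the 10 with 1366 CPM per kilobase on average over the 10 libraries (range 1123 to 1548). Plin1 followed with 634 (598 to 679), then Plin2 with 584 (461 to 755), Cidec with 564 (470 to 629), Lipe with 474 (432 to 513), G0s2 with 417 (183 to 678) and Mgll with 332 (275 to 394). Plin4 with 159 (147 to 181) and Plin5 with 150 (125 to 170) came lower, and Abhd5 was last with 52.5 CPM per kilobase (41.4 to 72.9). In this order Pnpla2 did not overlap with Plin1 in any library, nor Mgll with Plin4, nor Plin5 with Abhd5, and all other neighbours overlapped. The lipase mRNA was therefore far above the mRNA of its coactivator in all 10 libraries. Of the 12944 tested genes with a transcript length, 99.8% were lower than Pnpla2 and 91.7% lower than Abhd5 by this measure.

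Promoters of Pnpla2 and Abhd5 are shown because, of the lipases and lipase regulators among the 10 genes, these 2 had the lowest unadjusted p-values. That of Lipe is shown because its window was the only one with the letters of the STAT5 site. Each run holds 250 bases before and the first 10 bases after a RefSeq transcript start, 5′ to 3′ on the strand of the gene in GRCm38.p6. Pnpla2 is on the plus strand at chr7:141454938-141455197, the first of the 2 listed Lipe starts is on the minus strand at chr7:25395978-25396237, and Abhd5 is on the plus strand at chr9:122351366-122351625. Capitals mark TTCNNNGAA, the consensus bound by STAT5 dimers, in Lipe, and TGACG, the core of the site bound by the cAMP-responsive factor CREB, in Abhd5.
Pnpla2: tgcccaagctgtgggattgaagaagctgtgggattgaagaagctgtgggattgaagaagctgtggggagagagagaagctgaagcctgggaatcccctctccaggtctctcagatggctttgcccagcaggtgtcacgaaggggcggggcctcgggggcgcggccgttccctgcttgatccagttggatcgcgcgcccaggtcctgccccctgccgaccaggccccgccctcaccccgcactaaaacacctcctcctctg
Lipe: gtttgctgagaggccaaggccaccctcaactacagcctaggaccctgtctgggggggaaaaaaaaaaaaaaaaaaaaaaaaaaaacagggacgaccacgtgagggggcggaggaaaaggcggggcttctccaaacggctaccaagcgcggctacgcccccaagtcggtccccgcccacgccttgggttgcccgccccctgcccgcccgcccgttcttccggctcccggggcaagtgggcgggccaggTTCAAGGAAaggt
Abhd5: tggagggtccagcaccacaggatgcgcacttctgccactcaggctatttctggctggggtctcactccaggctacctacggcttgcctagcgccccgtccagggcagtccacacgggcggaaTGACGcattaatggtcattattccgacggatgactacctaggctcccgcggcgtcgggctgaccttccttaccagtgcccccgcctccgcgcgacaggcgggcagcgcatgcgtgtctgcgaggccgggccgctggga
In windows that reach 50 bases after the start, searched on both strands, TTCNNNGAA was found in 1 of the 14 RefSeq promoters of the 10 genes and in 8.3% of all 32851 mouse promoters. TGACG was found in 3 of the 14, those of Abhd5, G0s2 and the second Mgll start, and in 20.8% of all promoters. Counts per gene do not tell which start was used, and a match of letters is a description of the sequence.

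ATGL mRNA was lower on average in Stat5Adipoq BAT, but the difference did not pass the adjusted threshold in edgeR. Pnpla2 (chr7:141455188-141460743, plus strand) had 4063, 3905, 3678, 3750 and 3796 CPM in control replicates 1 to 5. It had 3370, 3493, 2948, 3395 and 3462 CPM in Stat5Adipoq replicates 1 to 5. Every Stat5Adipoq library lay below every control library, and Stat5Adipoq replicate 3 was the lowest of all. The fold change was 0.869, a log2 fold change of -0.20 (SE 0.06, 95% confidence interval -0.33 to -0.08, unadjusted p = 0.0043, edgeR adjusted p = 0.098). DESeq2 gave a log2 fold change of -0.21 with an adjusted p of 0.011. It differs from the edgeR fit in its test, dispersions, scaling and set of genes at once. In the edgeR fit, DESeq2 size factors alone gave an adjusted p of 0.098. No filter gave an edgeR adjusted p of 0.15 and the edgeR filter 0.095. The DESeq2 test, its dispersions and its own set of genes were not tested singly. Over the other alternatives the edgeR or limma-voom adjusted p lay between 0.056 and 0.21, and the log2 fold change between -0.23 and -0.16 over all of them.

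HSL and monoglyceride lipase mRNA had nearly the same mean in both genotypes. Lipe (chr7:25379527-25398486, minus strand) had 1756, 1726, 1609, 1653 and 1823 CPM in the controls and 1561, 1704, 1654, 1854 and 1787 CPM in Stat5Adipoq BAT. These values interleave, and the 95% confidence interval of the difference ran from -8.64% to 9.30% (log2 fold change 0.00, SE 0.06, edgeR adjusted p = 1). A difference in Lipe of the size estimated for Pnpla2 thus lies outside this interval. Mgll (chr6:88724412-88828360, plus strand) had 1333 ± 155 CPM in controls and 1319 ± 141 CPM in Stat5Adipoq BAT (SD, n = 5 each), with a log2 fold change of -0.01 (SE 0.09, edgeR adjusted p = 0.97). Its lowest and highest libraries were 1180 and 1573 CPM in controls and 1098 and 1431 CPM in Stat5Adipoq mice, and its interval was wider, from -13.8% to 13.8%. Exons of a transcript on the opposite strand, 4732471J01Rik, cover 23.5% of the exon bases of Lipe, and whether counting used the strand was not stated. That transcript had 163 counts on average and a log2 fold change of 0.06 (edgeR adjusted p = 0.89).

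The regulators of ATGL varied more between mice than the lipases, Abhd5 among the controls only and G0s2 in both genotypes. Abhd5 (chr9:122351616-122381524, plus strand), the coactivator gene, had 174, 159, 222, 230 and 131 CPM in control replicates 1 to 5. It had 153, 139, 137, 153 and 161 CPM in the Stat5Adipoq replicates. Control replicates 3 and 4 were above all other libraries, control replicate 5 was the lowest of all, and the Stat5Adipoq libraries lay close together between them. The log2 fold change was -0.30 (SE 0.13, 95% confidence interval -0.59 to -0.01, unadjusted p = 0.042, edgeR adjusted p = 0.31). Without control replicate 3, the library with muscle and liver transcripts, it was -0.23 (edgeR adjusted p = 0.44). Without control replicate 4 it was -0.21 (edgeR adjusted p = 0.51), and without control replicate 5 it was -0.40 (edgeR adjusted p = 0.085). An opposite-strand transcript, A730085K08Rik, covers 30.1% of its exon bases and had 2.1 counts on average.

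G0s2 (chr1:193272160-193273188, minus strand), the inhibitor gene, had 390, 238, 310, 557 and 331 CPM in the controls and 159, 590, 261, 529 and 271 CPM in Stat5Adipoq BAT. The lowest and the highest of all 10 libraries were both Stat5Adipoq, replicates 1 and 2, and differed 3.70-fold. The log2 fold change was -0.01 (SE 0.33, 95% confidence interval -0.72 to 0.70, edgeR adjusted p = 0.99), an interval that still holds changes from -39.5% to 62.2%. These libraries therefore do not tell apart differences in G0s2 within that interval, and the size that could have been detected was not tested. The SD of log2(CPM + 1) within genotypes was 0.64 for G0s2, larger than in 99.2% of the 2009 tested genes with at least 1000 counts on average. For the same measure the median of those genes was 0.11, and the values were 0.08 for Pnpla2 and Lipe, 0.16 for Mgll and 0.25 for Abhd5.

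**Figure D2:**
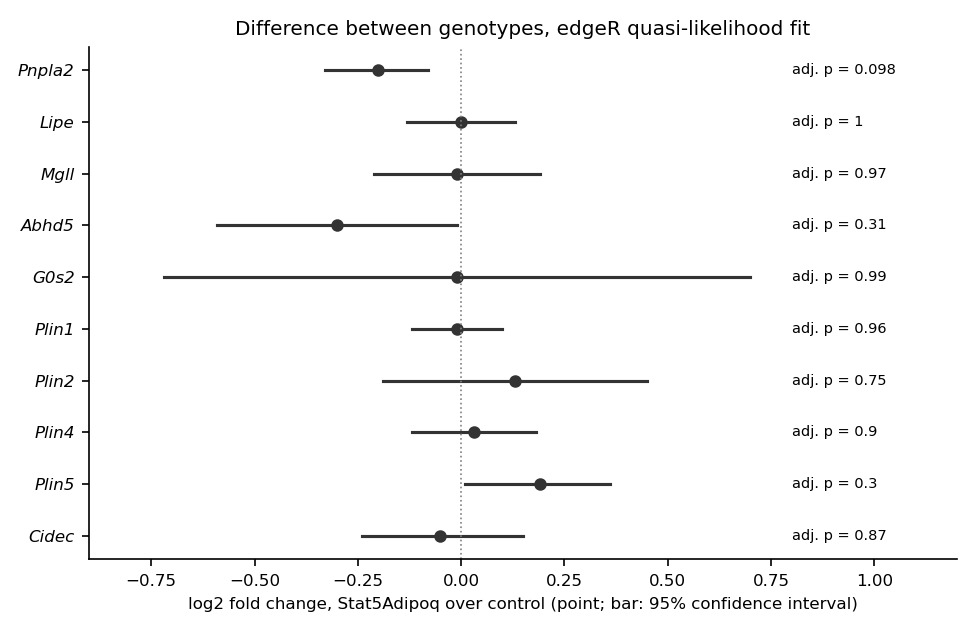
Log2 fold change of Stat5Adipoq over control BAT for each of the 10 genes (horizontal axis), with the edgeR estimate as point, its 95% confidence interval as bar and the adjusted p at the right. The intervals of Pnpla2, Abhd5 and Plin5 lie on one side of 0 without correction for many tests, no adjusted p is below 0.05, and G0s2 has the widest interval, -0.72 to 0.70.

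Among the droplet coat genes, Plin1 and Plin4 were steady and Plin2 and Plin5 varied together. Plin1 (chr7:79721164-79732904, minus strand), the main perilipin of adipocytes, had 1218 ± 40.0 CPM in controls and 1210 ± 57.1 CPM in Stat5Adipoq BAT (SD, n = 5 each). Its libraries ran from 1181 to 1284 CPM in controls, inside the 1145 to 1301 CPM of Stat5Adipoq BAT. Its 95% confidence interval was the narrowest of the 10 genes, from -7.94% to 7.11% (log2 fold change -0.01, SE 0.05, edgeR adjusted p = 0.96). Plin4 (chr17:56100587-56109948, minus strand), whose product coats small and nascent droplets, had 906 ± 78.6 CPM in controls and 926 ± 63.2 CPM in Stat5Adipoq mice, a log2 fold change of 0.03 (SE 0.07, edgeR adjusted p = 0.9). Control replicate 4 with 1044 CPM and Stat5Adipoq replicate 4 with 1028 CPM were its highest libraries, and the other 8 lay between 848 and 935 CPM.

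Plin2 (chr4:86626910-86670217, minus strand), a coat gene active in many cell types, had 944, 967, 1425, 1060 and 870 CPM in the controls. It had 887, 974, 1240, 1377 and 1289 CPM in Stat5Adipoq BAT. Stat5Adipoq replicates 3, 4 and 5 and control replicate 3 formed an upper group, and the genotypes overlapped over nearly the whole range. The log2 fold change was 0.13 (SE 0.15, 95% confidence interval -0.19 to 0.45, edgeR adjusted p = 0.75). It was 0.26 (SE 0.12, edgeR adjusted p = 0.32) without control replicate 3, the library with muscle and liver transcripts. Of the runs of 50 bases in the Plin2 transcript 4.89% also occur in the transcript of Gm12551, so that reads from these stretches cannot be assigned with certainty.

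Plin5 (chr17:56111597-56117606, minus strand), which lies 1648 bases from Plin4, had 271, 273, 336, 262 and 249 CPM in the controls. In Stat5Adipoq BAT it had 306, 284, 322, 338 and 331 CPM. All Stat5Adipoq libraries were above 4 of the 5 controls, and control replicate 3 was the second highest of the 10. The log2 fold change was 0.19 (SE 0.08, 95% confidence interval 0.01 to 0.36, unadjusted p = 0.04, edgeR adjusted p = 0.3). Without control replicate 3, the library with muscle and liver transcripts, it was 0.26 and passed the threshold (edgeR adjusted p = 0.038). With each other library left out it did not pass.

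Cidec (chr6:113424634-113435760, minus strand), the droplet fusion gene, had 1047, 1068, 1041, 956 and 811 CPM in the controls and 1081, 808, 909, 957 and 1012 CPM in Stat5Adipoq BAT. The lowest libraries of both genotypes were nearly equal, and so were the highest. The log2 fold change was -0.05 (SE 0.09, 95% confidence interval -0.24 to 0.15, edgeR adjusted p = 0.87).

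Ratios between partner genes within a library are free of any scaling between libraries. Of 8 ratios compared by exact two-sided permutation tests over all 252 assignments of libraries to genotypes, none passed after adjustment over the 8, and 1 had an unadjusted p below 0.05. For HSL over ATGL, the count of Lipe divided by that of Pnpla2 was 0.432, 0.442, 0.438, 0.441 and 0.480 in the controls. It was 0.463, 0.488, 0.561, 0.546 and 0.516 in Stat5Adipoq BAT. Control replicate 5 lay above Stat5Adipoq replicate 1, and all other Stat5Adipoq libraries were above all controls. The mean log2 ratio was -1.16 ± 0.06 in controls and -0.96 ± 0.11 in Stat5Adipoq BAT (SD, n = 5 each), a difference of 0.20 (exact permutation p = 0.016, adjusted p = 0.13). From the same counts, the edgeR log2 fold changes were 0.00 for Lipe and -0.20 for Pnpla2. This ratio is therefore not independent of the Pnpla2 result. The lowest exact permutation p this design allows is 0.0079, which adjusted over the 8 ratios is 0.063, so that no ratio could pass on its own and the absence of calls carries no weight.

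The ratio of the coactivator gene to its lipase, Abhd5 to Pnpla2, was 0.0429, 0.0407, 0.0604, 0.0614 and 0.0344 in the controls and 0.0453, 0.0399, 0.0464, 0.0451 and 0.0463 in Stat5Adipoq BAT. The Stat5Adipoq libraries all lay within the control range, and the mean log2 ratio differed by -0.07 (exact permutation p = 0.69, adjusted p = 0.93). The ratio of the inhibitor gene, G0s2 to Pnpla2, spanned 0.0473 to 0.169 within the Stat5Adipoq libraries alone and differed by 0.09 on the log2 scale (exact permutation p = 0.85, adjusted p = 0.93). Plin5 over Plin1 was 0.203 to 0.280 in controls and 0.238 to 0.281 in Stat5Adipoq BAT, a log2 difference of 0.20 (exact permutation p = 0.071, adjusted p = 0.29). For Mgll over Lipe, Plin2 over Plin1, Plin4 over Plin1 and Cidec over Plin1 the log2 differences lay between -0.04 and 0.14, with an adjusted exact permutation p of 0.93 for each.

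**Figure D3:**
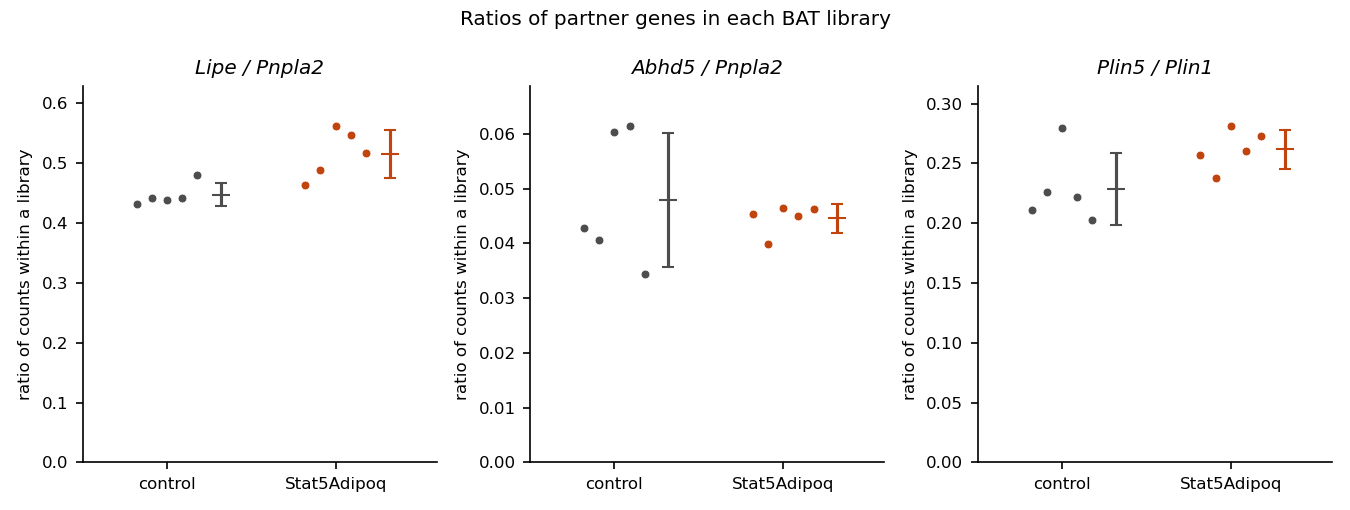
Ratio of the counts of partner genes within each library (vertical axes, starting at 0), with 1 point per library for 5 control (grey) and 5 Stat5Adipoq (orange) mice and the mean ± SD beside them. The Lipe to Pnpla2 ratios are 0.432 to 0.480 in controls and 0.463 to 0.561 in Stat5Adipoq BAT, the Abhd5 to Pnpla2 ratios of Stat5Adipoq BAT lie inside the wider control range, and the Plin5 to Plin1 ratios overlap through control replicate 3.

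The joint variation of Plin2 and Plin5 was seen after their values were known and is given as a description. The 4 libraries highest in Plin2 were control replicate 3 and Stat5Adipoq replicates 3, 4 and 5, and the same 4 were highest in Plin5, with 322 to 338 CPM against 249 to 306 CPM in the other 6. They were also the 4 highest in the summed brown adipocyte markers, with 17448 to 20797 CPM against 10486 to 16802 CPM. In Ucp1, the uncoupling protein of brown fat, which makes up most of that sum, they had 11866 to 13831 CPM against 5402 to 10111 CPM. Without Ucp1 the order of the marker sum differed, with control replicates 3 and 4 highest at 6966 and 6691 CPM and Stat5Adipoq replicate 3 at 5582 CPM. Control replicate 5 was the lowest library in Plin2, Plin5, Ucp1 and the marker sum with and without Ucp1. Both genotypes are found among the libraries with high and with low values, and the part of the brown adipocyte content of each sample in the Plin2 and Plin5 levels was not tested.

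**Figure D4:**
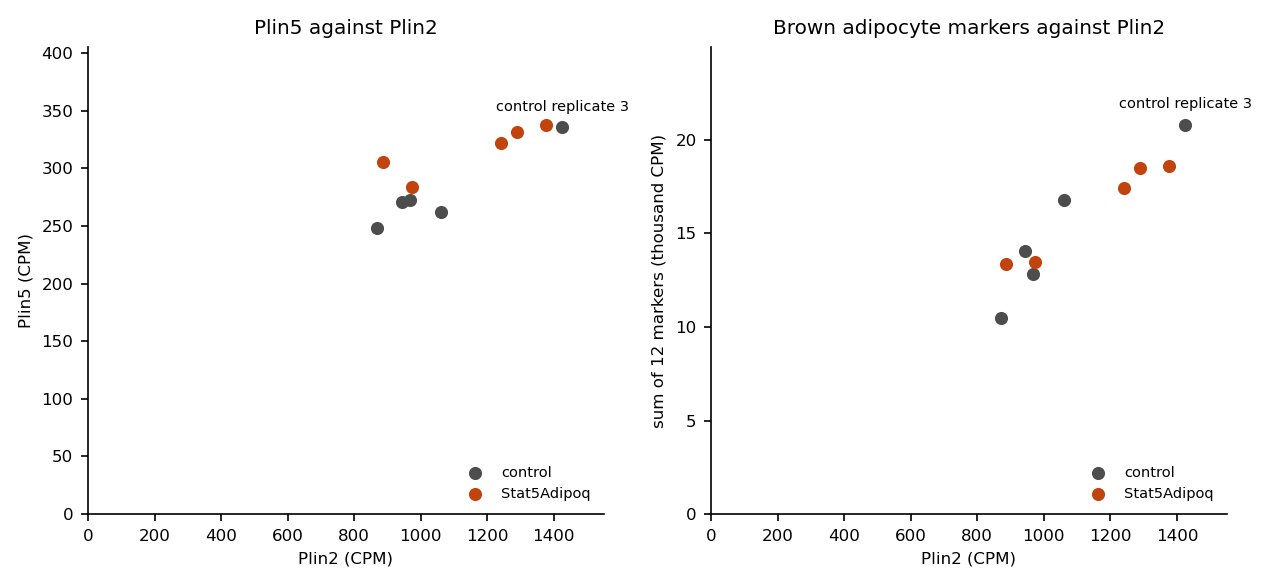
Plin5 (left, CPM) and the sum of 12 brown adipocyte markers (right, in units of 1000 CPM) against Plin2 (horizontal axes, CPM), 1 point per library, control grey and Stat5Adipoq orange, all axes starting at 0. The 4 libraries with Plin2 at 1240 CPM or more, 1 control and 3 Stat5Adipoq, are also the highest on both vertical axes.

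Around the 10 genes, 6 lists of other lipid genes were examined, with 97 of 104 members tested. In these lists 0 genes were called higher and 3 lower, beside 190 higher and 178 lower (1.31%) of all 13568 genes tested. Of the 97, 18 had an unadjusted edgeR p below 0.05, beside 15.2% of all genes. The lists were chosen with earlier results of these data known, so these counts are a description only. The counts by direction changed when control replicate 3, the library with muscle and liver transcripts, was left out. Then 3 were called higher (Ces1d, Fabp3 and Agpat3) and 2 lower, beside 219 higher and 224 lower of all 13400 genes tested. Those 3 were already higher with all libraries, with log2 fold changes of 0.26, 0.54 and 0.22, but did not pass. With limma-voom 1 was called higher and 2 lower, beside 200 higher and 186 lower of all 13568 genes. Slc27a1, a fatty acid transporter of the plasma membrane, had 337 ± 25.2 CPM in controls and 236 ± 24.1 CPM in Stat5Adipoq BAT (SD, n = 5 each), a log2 fold change of -0.52 (SE 0.08, edgeR adjusted p = 0.005). Its libraries were 310 to 365 CPM in controls and 204 to 259 CPM in Stat5Adipoq mice and did not overlap. Pck1, the enzyme that feeds glyceroneogenesis and so the re-esterification of fatty acids, fell by 0.46 on the log2 scale (SE 0.10, edgeR adjusted p = 0.037), from 6795 ± 1116 to 4939 ± 365 CPM, again without overlap. Ddhd1, a phospholipase, fell by 0.59 (SE 0.14, edgeR adjusted p = 0.048) from 74.3 ± 15.7 to 49.3 ± 6.60 CPM, with overlapping libraries. Slc27a1 kept its call in all 17 alternatives, whereas Ddhd1 lost it in 11 and Pck1 in 9 of them, including 9 and 8 of the 10 in which a single library was left out. DESeq2 called 5 of the 96 listed genes it tested, these 3 and Ces1d and Abhd12, beside 4.99% of all genes it tested.

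By list, 1 of 13 other lipases and lipase regulators fell, Ddhd1, and the median log2 fold change was 0.03. Ces1d, a carboxylesterase that hydrolyses triglycerides, had 1420 ± 92.8 CPM in controls and 1699 ± 111 CPM in Stat5Adipoq BAT (log2 fold change 0.26, edgeR adjusted p = 0.054, DESeq2 adjusted p = 0.0049), and Abhd12, a lysophospholipid lipase gene, had a log2 fold change of -0.24 (edgeR adjusted p = 0.078, DESeq2 adjusted p = 0.029). Of 24 other droplet proteins, 0 passed, with a median of -0.04, and 4 had an unadjusted edgeR p below 0.05. Cidea, the relative of Cidec typical of brown fat, had -0.20 (edgeR adjusted p = 0.27), and Bscl2, which encodes the droplet assembly protein seipin, had -0.19 (edgeR adjusted p = 0.22). Of 16 genes that handle the released fatty acids and glycerol, Slc27a1 and Pck1 fell, and the median was -0.04. Among them the fatty acid binding protein genes Fabp3 and Fabp4 had 0.54 (edgeR adjusted p = 0.21) and -0.16 (edgeR adjusted p = 0.37). Without control replicate 3, which had 239 CPM of Fabp3 against 99.6 to 153 CPM in the other controls, Fabp3 was called at 0.79 (edgeR adjusted p = 0.0031).

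Of 14 genes of triglyceride re-synthesis, 20 transcription factors and kinases that govern lipolytic genes and enzymes, and 10 genes of lipophagy and the lysosome, 0 passed, with medians of 0.01, -0.05 and -0.04 and 3, 3 and 1 genes at an unadjusted edgeR p below 0.05. The acyltransferase genes Agpat3 and Gpat4 had log2 fold changes of 0.22 and -0.23 (edgeR adjusted p = 0.15 and 0.26), and without control replicate 3 Agpat3 was called at 0.27 (edgeR adjusted p = 0.042). Pparg and Ppara, nuclear receptors that bind at genes of lipid storage and oxidation, had 0.19 and 0.27 (edgeR adjusted p = 0.24 for each). Map1lc3b and Lamp2, an autophagosome and a lysosome membrane gene, had 0.14 and -0.18 (edgeR adjusted p = 0.32 and 0.34).

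**Figure D5:**
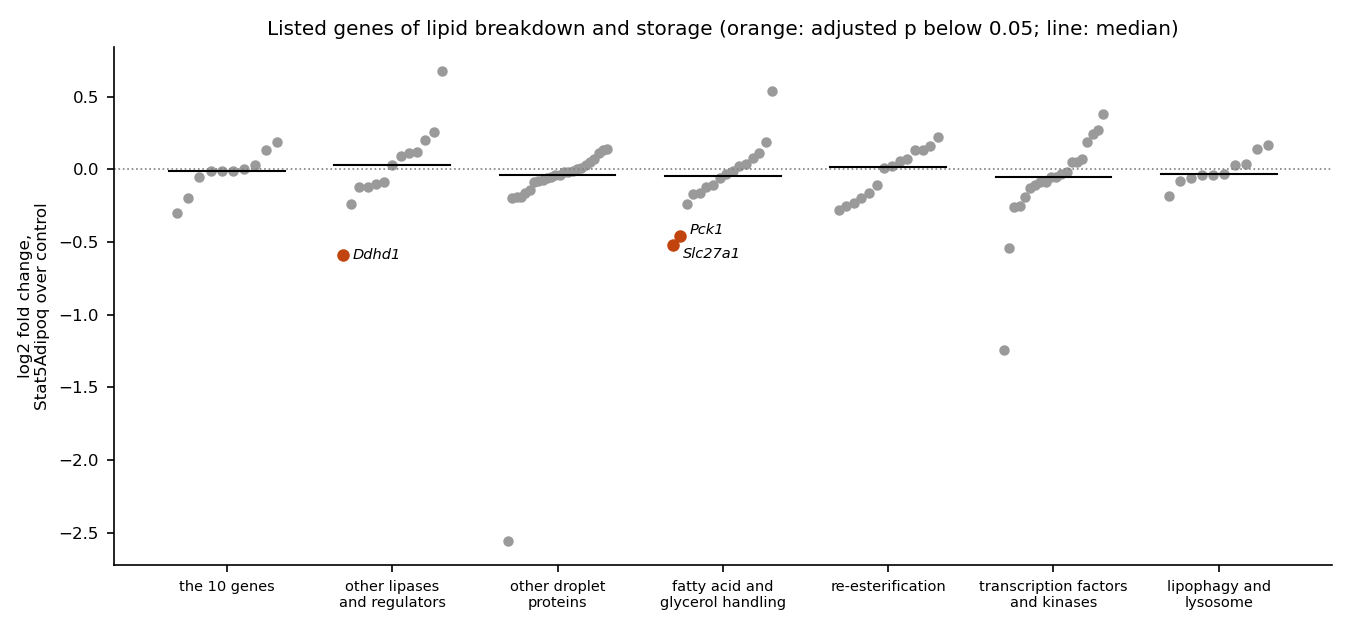
Log2 fold change of Stat5Adipoq over control BAT (vertical axis) for every tested gene of the 10 and of the 6 lists of other lipid genes, 1 point per gene, orange where the edgeR adjusted p is below 0.05, with a line at each median. The 3 orange points are Ddhd1, Pck1 and Slc27a1, the medians lie between -0.05 and 0.03, and the lowest point, Fitm1 at -2.56, chosen after its value was seen, is a gene with 3.9 counts on average (edgeR adjusted p = 0.4).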

How the data were processed

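BAT of 5 control and 5 Stat5Adipoq mice was measured by RNA-Seq, and groups and replicate numbers were taken from the sample titles. Libraries were made with a stranded mRNA kit and sequenced as 50 base single-end reads. The authors aligned reads to GRCm38 with STAR 2.5.0b, counted them over exons with featureCounts 1.5.0-p1 and deposited unnormalized counts per gene, which are the values used here. The strand setting of the counting was not stated. The authors' table of the comparison, made with DESeq2 1.16.1, holds log2 fold changes and p-values, of which none was used, and served only to pair identifiers with symbols.

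As in the methods of the study, a gene was tested when its counts, scaled by DESeq2 size factors and summed over the libraries, exceeded 45. Genotypes were compared with the quasi-likelihood F test of edgeR 4.0.16 (R 4.3.3) with TMM normalization and no covariate, over all 13568 genes with Benjamini-Hochberg adjustment at 0.05. Each standard error is the absolute log2 fold change over the square root of F. The procedure was tested on simulated counts, in which every planted difference was larger than the one estimated for Pnpla2. Its performance for differences of that size was not tested. Levels per kilobase use the longest transcript that matches a curated RefSeq transcript, and gene positions and promoters are those of RefSeq for GRCm38.p6. Depth was 8488129 to 19514904 counts per library, and for these well expressed genes the spread between mice, not counting error, limits precision. No pair of libraries agreed within sampling noise. The edgeR p-values set the difference between genotypes against the spread between these mice within genotypes.

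Named genes are the 10 genes, Stat5a and Stat5b, and of each list of other lipid genes those past the threshold and the 2 next by p-value. The 10 genes and all lists were chosen with earlier results of these data known. The alternatives were DESeq2 1.42.0, limma-voom (limma 3.58.1), DESeq2 size factors, library size alone, no filter, the edgeR filter, a replicate block and leaving out each library.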

Additional observations from a re-analysis of the deposited data

Results flagged for a closer look

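In groups of 5 libraries, a value far from the other 4 by the criterion of Dixon is found by chance in about 1 of 20 groups. Of 40 groups examined, 7 had one, and several of them share a gene or a library. Pnpla2 was low in Stat5Adipoq replicate 3, with 2948 CPM against 3370 to 3493 CPM in the other 4. Plin4 was high in control replicate 4, with 1044 CPM against 848 to 889 CPM, and the log2 ratio of Plin4 to Plin1 there was -0.18 against -0.53 to -0.47. Plin5 was high in control replicate 3, with 336 CPM against 249 to 273 CPM, and this library also carried the skeletal muscle and liver transcripts. Stat5a was at 20.7 CPM in Stat5Adipoq replicate 1 against 15.8 to 16.6 CPM in the other 4. The log2 ratio of Abhd5 to Pnpla2 was -4.65 in Stat5Adipoq replicate 2 against -4.47 to -4.43, and that of Lipe to Pnpla2 was -1.06 in control replicate 5 against -1.21 to -1.18.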

How the results depend on the processing

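Of the 170 log2 fold changes of the 10 genes under 17 alternatives, 168 stayed on the same side of the threshold, and Pnpla2 with DESeq2 and Plin5 without control replicate 3 passed it. The number of the 10 genes called was therefore 1 with DESeq2 and 0 to 1 with a library left out. The partner ratios gave 0 calls in every setting run, which says nothing of their stability, since a single ratio cannot go below an adjusted exact permutation p of 0.063. Of the other lipid genes 3 were called, 5 with DESeq2, 2 with the replicate block and 1 to 5 with a library left out, the 5 being 3 higher and 2 lower without control replicate 3 against 0 higher and 3 lower with all libraries. Over all genes 368 were called (190 higher, 178 lower), 660 with DESeq2, 273 with the replicate block and 185 to 443 with a library left out. With library size alone the calls were 139 higher and 184 lower, and the median of all genes moved to -0.02. The causes of these differences were not tested. Same-numbered libraries of both genotypes share only a number: the correlations of their deviations from the genotype means were -0.24, 0.09, -0.09, 0.17 and -0.22 over 10152 genes. With the replicate block, Pnpla2 had a log2 fold change of -0.21 (edgeR adjusted p = 0.12), and paired ratio tests cannot go below p = 0.062 in an exact permutation test of 5 pairs. Within these limits, differences inside the confidence intervals given, the widest being that of G0s2, could not be told apart.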

Other observations

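Hilpda, which encodes an inhibitor of ATGL, and Irf4, a transcription factor of the lipolytic response in adipocytes, lie outside the rule for named genes and were chosen after their values were seen. Hilpda had 3.63 ± 0.752 CPM in controls and 5.85 ± 1.89 CPM in Stat5Adipoq BAT (SD, n = 5 each), a log2 fold change of 0.68 (SE 0.22, edgeR adjusted p = 0.14). Irf4 had 107 ± 95.5 CPM in controls and 45.1 ± 28.9 CPM in Stat5Adipoq BAT, a log2 fold change of -1.24 (SE 0.55, edgeR adjusted p = 0.31). The libraries of both genotypes overlapped for both genes.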
